A study of Mus musculus with 12 samples.

Results

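Hepatic mRNA of carbonyl reductase 1 (Cbr1), carbonyl reductase 3 (Cbr3), the quinone reductase Nqo1 and microsomal epoxide hydrolase (Ephx1) was followed over 4 grades of Nrf2 activity in mice. Every probe set annotated with 1 of these symbols alone was taken. This gave 4 of the 9622 probe sets in the table, 1 per gene (Cbr1, 1460196_at; Cbr3, 1427912_at; Nqo1, 1423627_at; Ephx1, 1422438_at), and 4 of the 5856 genes tested. No probe set with several symbols named any of them. Livers came from untreated male C57BL/6 mice aged 8 weeks, 3 mice per genotype, each on its own Affymetrix array. Nrf2-null mice lack Nrf2, and wild-type mice carry both genes intact. Keap1-KD mice have less Keap1 in all tissues. Keap1-HKO mice were bred from Keap1-KD mice and an albumin-driven Cre, which acts in hepatocytes, so that their other liver cells still carry the knockdown allele. The mRNA was that of whole liver, in which fewer cells of a type and less mRNA per cell cannot be told apart.

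Keap1 is an adaptor protein that keeps the transcription factor Nrf2 scarce by steering it to the proteasome, so that less Keap1 means more Nrf2. Many detoxification enzymes are under its control, through a short DNA motif called the antioxidant response element. Cbr1 and Cbr3 are short-chain dehydrogenases that reduce carbonyl groups with NADPH. Nqo1 reduces quinones to hydroquinones, and Ephx1, an enzyme of the endoplasmic reticulum, adds water to epoxides. Nqo1 is widely used as a marker of Nrf2 activity.

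The targeted genes followed the labels. Mean Nfe2l2 mRNA, which encodes Nrf2, had an un-logged intensity of 476.7 in wild-type and 5.096 in Nrf2-null mice. It was 297.5 in Keap1-HKO mice, all 3 below wild-type (log2 difference −0.70, limma adjusted p = 0.048), a call that ended when any of 11 arrays was left out (all but Keap1-HKO replicate 3) and whose adjusted p over all alternatives was 0.0041 to 0.24. Mean Keap1 mRNA had one of 233.2 in wild-type mice, 52.24 with the knockdown allele and 10.24 in Keap1-HKO mice. Hepatocyte markers (9 of 10 measured) had a median log2 intensity between 15.44 and 15.63 on all arrays. Keap1-HKO replicate 1 differed from the other Keap1-HKO arrays by a mean of 0.901 on the log2 scale and Nrf2-null replicate 1 from its own by 0.58. Wild-type arrays differed from each other by 0.147 to 0.221. In deviations from the genotype mean, these 2 replicate 1 arrays correlated with r = 0.787. Nrf2-null replicate 1 correlated with Keap1-HKO replicates 2 and 3 at −0.681 and −0.799. For Nrf2-null replicate 2 the values with Keap1-HKO replicates 2 and 3 were 0.685 and 0.622. Summed intensity of pancreas acinar markers (8 of 12 measured) was 139000 and 20200 in Keap1-HKO replicates 2 and 3, and 469 to 1300 on the other arrays. That of skeletal muscle markers (7 of 10 measured) was 21600 in wild-type replicate 2, 30000 and 11000 in Keap1-HKO replicates 2 and 3, and 47.4 to 86.5 elsewhere. The part of these transcripts in the results was not tested. Sums of Kupffer cell, stellate cell and endothelial cell markers spanned 5110 to 7570, 1240 to 4800 and 1970 to 2860 over the 12 arrays. The 1 measured red blood cell marker lay between 214 and 397 in Keap1-HKO mice and between 411 and 840 in the others. None of the 6 cholangiocyte markers was in the table.

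The 250 bases upstream of each RefSeq start site are given (GRCm38.p6, read 5′ to 3′ along the gene), because these are the 4 promoters whose mRNA is compared and because Cbr1 and Cbr3 are neighbours on chromosome 16. Capitals mark GC boxes (GGGCGG) and TATA boxes (TATAAA) on either strand.
Cbr1, chr16:93607587-93607836, plus strand: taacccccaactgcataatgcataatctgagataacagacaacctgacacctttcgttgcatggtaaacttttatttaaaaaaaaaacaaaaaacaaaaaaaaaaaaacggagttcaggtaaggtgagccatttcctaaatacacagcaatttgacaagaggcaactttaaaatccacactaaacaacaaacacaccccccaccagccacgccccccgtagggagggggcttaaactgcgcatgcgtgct
Cbr3, chr16:93682969-93683218, plus strand: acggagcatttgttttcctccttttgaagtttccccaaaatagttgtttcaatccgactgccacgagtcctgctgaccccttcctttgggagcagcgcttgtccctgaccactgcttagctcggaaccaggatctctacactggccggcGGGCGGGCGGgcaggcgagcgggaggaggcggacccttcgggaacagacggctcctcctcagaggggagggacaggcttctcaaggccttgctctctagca
Nqo1, chr8:107403206-107403455, minus strand: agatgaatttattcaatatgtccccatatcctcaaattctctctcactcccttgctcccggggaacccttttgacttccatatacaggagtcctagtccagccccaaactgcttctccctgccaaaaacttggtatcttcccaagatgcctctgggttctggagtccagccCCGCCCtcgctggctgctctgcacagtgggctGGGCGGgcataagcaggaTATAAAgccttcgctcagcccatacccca
Ephx1, chr1:181017570-181017819, minus strand: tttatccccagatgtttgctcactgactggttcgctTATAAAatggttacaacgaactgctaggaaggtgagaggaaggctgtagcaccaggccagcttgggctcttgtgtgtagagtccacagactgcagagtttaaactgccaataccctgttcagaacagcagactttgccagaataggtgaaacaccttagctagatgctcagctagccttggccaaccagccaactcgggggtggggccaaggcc

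The core of the antioxidant response element, TGACNNNGC on either strand, was in none of the 4 windows of 300 bases (250 before and 50 after the start site), while 12.4% of 32851 such windows held it. These letters were thus not within this short stretch, and more distant sequence was not searched here. The study, searching further upstream, lists putative matches of this core for all 4 genes. That nearest to Nqo1 lies within 250 bases of the start site used there. GC boxes were in the windows of Cbr3, Nqo1 and Ephx1, and in 35.7% of all windows. A TATA box began 29 bases before the start site of Nqo1 and 214 bases before that of Ephx1, and 13.6% of windows held one. GC content of the window was 44.0% for Cbr1, 60.0% for Cbr3, 53.7% for Nqo1 and 54.3% for Ephx1, against a median of 52.7%. For comparison, 8 of 20 other Nrf2 target genes with a window held the core. Those of Abcc4 and Srxn1, whose mRNA followed Cbr3 most closely of all genes (r = 0.998 and 0.984 over 12 arrays), are given with the core in capitals. Abcc4 has 2 annotated start sites with a match each.
Abcc4, chr14:118676938-118676962, minus strand: taatctcgTGACTCTGCcgtggtgg
Abcc4, chr14:118706228-118706252, minus strand: cccgagagGCGGGGTCAgggcgggc
Srxn1, chr2:152105544-152105568, plus strand: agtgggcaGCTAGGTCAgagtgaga

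Cbr1 mRNA was above an intensity of 100 on all 12 arrays. This value, which is 6.64 on the log2 scale, is the one by which the study kept probe sets, if at least 1 genotype reached it. The log2 intensity was 9.94, 9.52 and 9.72 in the 3 Nrf2-null mice, 10.15, 9.13 and 9.8 in wild-type, 10.73, 10.58 and 10.37 in Keap1-KD, and 13.62, 13.07 and 13.32 in Keap1-HKO mice. Nrf2-null and wild-type arrays overlapped, all Keap1-KD arrays lay above them, and all Keap1-HKO arrays lay above these. Mean Cbr1 intensity in Keap1-HKO mice was 1112% ± 135 (SEM, n = 3) above wild-type, a log2 difference of 3.64 (SE 0.25, limma adjusted p = 2.07e-05). In Keap1-KD mice it was 76.05% ± 12.5 above wild-type, a log2 difference of 0.87 that did not pass adjustment over all genes (SE 0.25, adjusted p = 1). In Nrf2-null mice the log2 difference was 0.03 (95% interval −0.53 to 0.59, adjusted p = 0.971). The sign of this last difference turned to −0.25 without wild-type replicate 2 and to −0.08 without Nrf2-null replicate 1.

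Cbr3, the neighbour of Cbr1 on chromosome 16, went from under an intensity of 100 in 3 genotypes to a mean log2 intensity of 13.84 in Keap1-HKO mice. Its log2 intensity was 3.35, 3.47 and 2.88 in Nrf2-null, 3.20, 3.65 and 3.64 in wild-type, 6.26, 5.76 and 5.68 in Keap1-KD, and 14.30, 13.54 and 13.68 in Keap1-HKO mice. Thus 9 arrays lay under 100 and only the 3 of Keap1-HKO mice above it, through which alone Cbr3 passed the filter of the table. A difference in Keap1-HKO mice was therefore a condition of its being listed. Mean un-logged intensity was 15060 ± 2570 (SEM, n = 3) in Keap1-HKO mice, at least 151-fold higher than in wild-type mice when these are set to 100. The measured log2 difference was 10.34 (SE 0.25, adjusted p = 4.48e-09), and with all values under 100 raised to it 7.20. It ranked first of 5856 genes on both scales, which is given as a description because of that condition. Keap1-KD arrays did not overlap wild-type arrays, and the log2 difference was 2.40 (SE 0.25, adjusted p = 0.00686). Both means, 60.62 and 11.41, were under 100, so no fold is given, and with values raised to 100 the difference was 0.00. The adjusted p in Keap1-KD mice was 0.0574 without wild-type replicate 1 and 0.179 after a second quantile normalization, in a range of 3.39e-05 to 1 over all alternatives. Nrf2-null and wild-type arrays overlapped (−0.27, adjusted p = 0.823).

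Nqo1 mRNA was under 100 on all Nrf2-null and wild-type arrays and above it on all Keap1-HKO arrays. Its log2 intensity was 3.15, 3.86 and 3.88 in Nrf2-null, 4.77, 4.5 and 4.87 in wild-type, 7.29, 6.51 and 6.61 in Keap1-KD, and 10.42, 9.56 and 9.99 in Keap1-HKO mice. The 4 genotypes did not overlap, and Nqo1 passed the filter of the table through Keap1-KD and Keap1-HKO means alone. Of the 12 arrays 4 were above 100, 1 of them from a Keap1-KD mouse. Mean intensity in Keap1-HKO mice was 1047 ± 177 (SEM, n = 3), at least 10.5-fold higher than in wild-type mice when these are set to 100. The measured log2 difference was 5.28 (SE 0.29, adjusted p = 2.61e-06), and 3.35 with values raised to 100. In Keap1-KD mice the mean of 115 ± 20.8 did not stand clear of 100, so no fold is given, and the log2 difference was 2.09 (SE 0.29, adjusted p = 0.0373). Leaving out 1 array ended that call in 9 of 12 cases (all but Nrf2-null replicate 1 and Keap1-HKO replicates 1 and 2). The log2 difference stayed between 1.84 and 2.24. The adjusted p over all 12 cases lay between 0.0218 and 0.29. Over all alternatives it was 3.39e-05 to 1, and with values raised to 100 the difference was 0.22 (adjusted p = 1). In Nrf2-null mice the log2 difference was −1.08 (SE 0.29, adjusted p = 0.273), with both means, 12.7 and 26.4, under 100.

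Ephx1 mRNA was above 100 on all 12 arrays and graded over the 4 genotypes. Its log2 intensity was 11.35, 11.01 and 10.86 in Nrf2-null, 13.04, 11.98 and 12.46 in wild-type, 13.33, 13.50 and 13.21 in Keap1-KD, and 14.51, 14.06 and 14.07 in Keap1-HKO mice. Each genotype lay wholly above the one before it. Compared with wild-type mice, the mean intensity differed by −63.95% ± 3.76 (SEM, n = 3) in Nrf2-null, 73.29% ± 10.3 in Keap1-KD mice and 218.9% ± 34.3 in those with the hepatocyte knockout. The log2 difference passed the test in Keap1-HKO mice (1.72, SE 0.26, adjusted p = 0.00481). It was −1.42 in Nrf2-null mice (SE 0.26, adjusted p = 0.0508), just outside the threshold, and 0.85 in Keap1-KD mice (SE 0.26, adjusted p = 1). In Nrf2-null mice the limma adjusted p was 0.024 without wild-type replicate 2, 0.0341 without Keap1-HKO replicate 1, and 0.0221 without both arrays that stood apart. Of 12 single-array omissions only 2 gave a pass (adjusted p up to 0.21). The range was 8.18e-05 to 0.283 over all 26 alternatives, of which 14 did not pass.

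**Figure D1:**
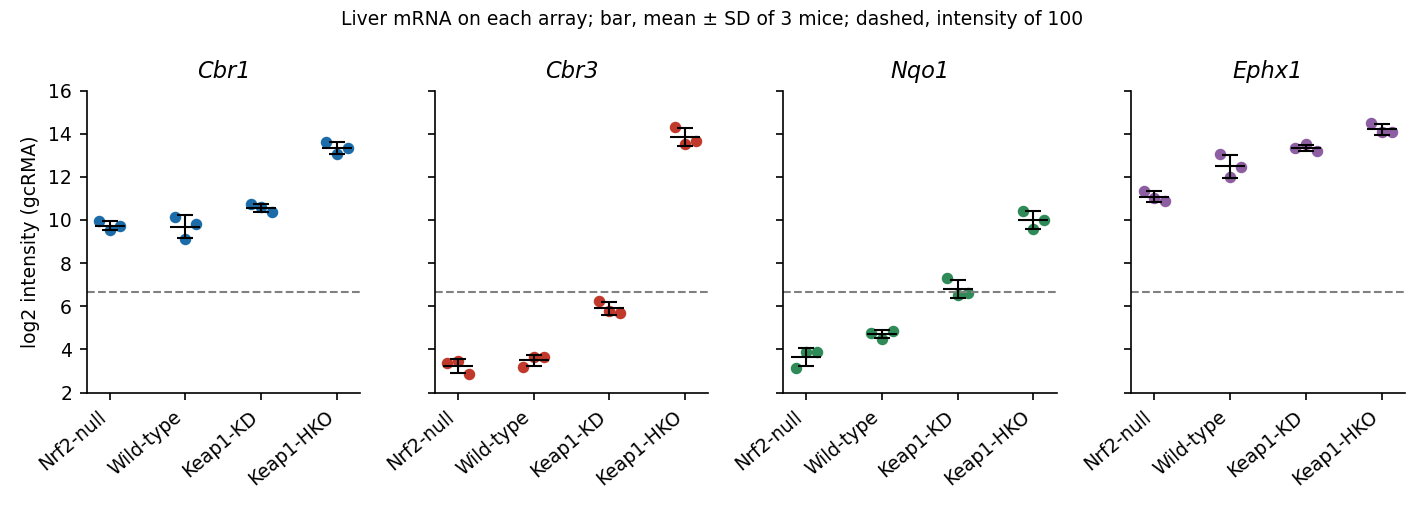
Log2 intensity (y axis) of Cbr1, Cbr3, Nqo1 and Ephx1 on each of the 12 arrays by genotype (x axis), with the mean and SD of 3 mice as black bars and an intensity of 100 as the dashed line. Cbr3 is above the line only in Keap1-HKO mice, where it reaches 14.30, while Cbr1 and Ephx1 are above it on all 12 arrays.

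Counted over the 4 genes, none passed the test in Nrf2-null mice, where 0.359% of all genes did as lower, and 2 (Nqo1 and Ephx1) had arrays wholly below wild-type, against 8.76% of all genes. In Keap1-KD mice 2 passed as higher (Cbr3 and Nqo1), against 0.0512% of all genes, or 3 genes, and all 4 had arrays wholly above wild-type, against 7.02%. In Keap1-HKO mice Cbr1 and Ephx1 passed as higher, against 2.1% of all genes, and lay wholly above wild-type, against 12.7%. Cbr3 and Nqo1 did so too, but both had wild-type means under 100 and were listed only through genotypes with less Keap1, so that nothing is read from counts that include them, here or in Keap1-KD mice. These 3 comparisons share the wild-type arrays. Without both arrays that stood apart (replicate 1 of Keap1-HKO and of Nrf2-null mice), the log2 differences in Keap1-HKO mice were 3.5 for Cbr1, 10.11 for Cbr3, 5.06 for Nqo1 and 1.57 for Ephx1, and all 4 still passed. The Keap1-HKO arrays left were then replicates 2 and 3, those with high pancreas and muscle sums. Keap1-HKO replicate 1, with low pancreas and muscle sums (480 and 86.5), held the highest level of each of the 4 mRNA. Wild-type replicate 2, with a high muscle sum, held the lowest wild-type level of Cbr1, Nqo1 and Ephx1. Without it the log2 differences in Keap1-HKO mice were 3.36 for Cbr1 and 1.47 for Ephx1 (adjusted p = 0.0175), and those in Keap1-KD mice were 0.59 and 0.6.

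Keap1-HKO mice were also compared with Keap1-KD mice, which asks what the full loss of hepatocyte Keap1 added to partial loss. Cbr3 mRNA was higher by 7.94 (SE 0.25, adjusted p = 3.67e-08), Nqo1 by 3.19 (SE 0.29, adjusted p = 0.000225) and Cbr1 by 2.77 (SE 0.25, adjusted p = 0.000227) on the log2 scale. For Cbr1 this was a 6.88-fold rise, after a ratio of 1.76 between Keap1-KD and wild-type mice. Ephx1 was higher by 0.87 and did not pass (SE 0.26, adjusted p = 0.172), a ratio of 1.84 after one of 1.73. Over all genes 0.786% passed as higher, and all 4 members lay wholly above Keap1-KD arrays, against 9.22%. For Cbr3, under 100 in Keap1-KD mice, this was a condition of its being listed.

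The difference between the steps, Keap1-KD to Keap1-HKO minus wild-type to Keap1-KD on the log2 scale, was 5.54 for Cbr3 (95% interval 4.56 to 6.52, adjusted p = 0.000189). It was 1.90 for Cbr1 (0.93 to 2.88, adjusted p = 0.354), 1.1 for Nqo1 (−0.01 to 2.21, adjusted p = 0.995) and 0.02 for Ephx1 (−0.97 to 1.0, adjusted p = 0.999). Only Cbr3 passed adjustment, against 0.12% of all genes, or 7. For Cbr3, under 100 in Keap1-KD mice, a rise at the last step was a condition of its being listed, so nothing is read from this pass. With values raised to 100, the difference was 7.20 for Cbr3 and 2.92 for Nqo1, and the latter then passed (adjusted p = 0.0193, 0.0193 to 1 over all alternatives). Raising wild-type Nqo1 values to 100 shortened its first step from 2.09 to 0.22 by construction, so nothing is read from that pass. The median over all genes was −0.01, and over the 123 genes higher in Keap1-HKO than wild-type mice it was 0.48 (quartiles 0.16 and 0.9). The interval of Ephx1 is wide, so that its steps were not shown to be equal.

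Over the whole range from Nrf2-null to Keap1-HKO mice, Ephx1 covered 3.14 log2 units, of which 45.2% lay between Nrf2-null and wild-type, 27.1% between wild-type and Keap1-KD, and 27.6% between Keap1-KD and Keap1-HKO. For Cbr1 the same shares of 3.61 units were −0.903%, 24% and 76.9%. No shares are given for Cbr3 and Nqo1, because their Nrf2-null and wild-type means lay under 100.

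**Figure D2:**
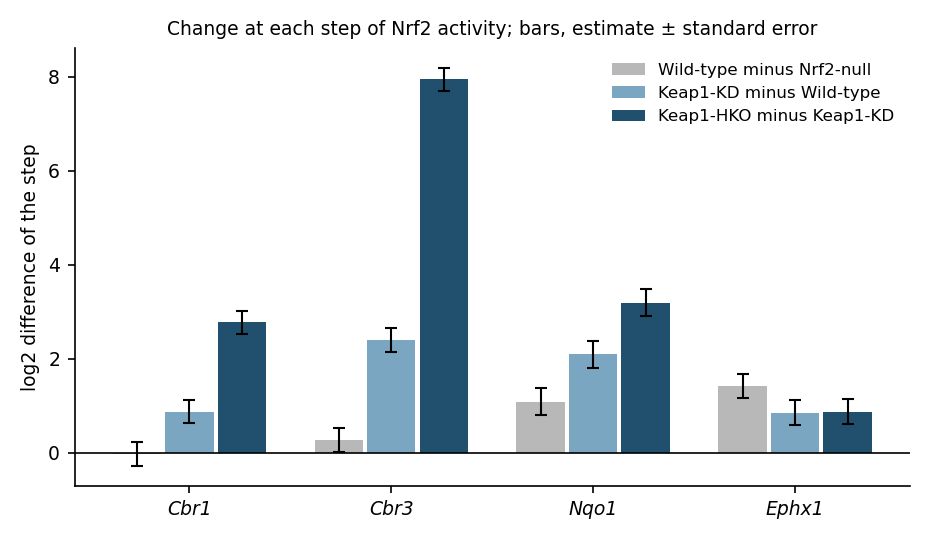
Log2 difference (y axis) at each step between neighbouring genotypes for the 4 genes (x axis), with limma standard errors. The last step is the tallest for Cbr1 (2.77), Cbr3 (7.94) and Nqo1 (3.19), and the step from Nrf2-null to wild-type is the tallest for Ephx1 (1.42). All steps of Cbr3 start from means under 100, and so do those of Nqo1 up to Keap1-KD. With values raised to 100 the last step of Cbr3 is 7.20.

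The responses of the 4 mRNA were then set against each other, as the difference of 2 members' log2 changes from wild-type, for 6 pairs in 3 comparisons. In 13 of the 18 the per-array differences of the genotypes did not overlap, each with an exact permutation p of 0.1 (2-sided, 0.138 after adjustment over 18), which is the smallest that 3 against 3 mice allow. In Keap1-HKO mice all 6 pairs were of this kind. No such share was taken over other pairs of genes, and these tests share members and wild-type arrays. Nothing is therefore read from these counts. The change of Cbr3 exceeded that of Nqo1 by 5.07 (SE 0.22), that of Cbr1 by 6.70 (SE 0.43) and that of Ephx1 by 8.62 (SE 0.45). With values raised to 100, since wild-type Cbr3 and Nqo1 lay under it, these gaps were 3.85, 3.56 and 5.47. The change of Nqo1 exceeded that of Cbr1 by 1.64 (SE 0.24) as measured, but with values raised to 100 the sign turned to −0.29 (SE 0.31, exact permutation p = 0.4), so that their order is not settled. The change of Cbr1 exceeded that of Ephx1 by 1.92 (SE 0.10), and both were above 100 throughout. In Keap1-KD mice the changes of Cbr3 and Nqo1 exceeded that of Cbr1 by 1.53 and 1.22 as measured and were below it with values raised to 100 (−0.87 and −0.65). The estimates for Cbr1 and Ephx1 differed there by 0.01 (SE 0.12, exact permutation p = 0.9). In Nrf2-null mice the same pair differed by 1.45 (SE 0.13), with Ephx1 the lower.

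Among mice of one genotype, Cbr1 and Ephx1 varied together. Deviations from the genotype mean correlated with r = 0.89 over the 12 arrays, 0.79 without wild-type replicate 2 and 0.86 without the 2 arrays that stood apart. For the other 5 pairs r was between 0.06 and 0.47, between −0.1 and 0.55 without wild-type replicate 2, and between −0.35 and 0.56 without the 2 arrays. That of Cbr1 and Cbr3 was 0.1, 0.39 and −0.26. All values of one array share its sample and its normalization, so these are descriptions.

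Other enzymes of the same reactions were counted in the same fit. Of 37 other carbonyl and quinone reductases 26 were measured. In Keap1-HKO mice 2 of them passed as higher, against 2.1% of all genes, and before adjustment 5 were higher and 1 lower at p under 0.05. These were Ptgr1, a prostaglandin and alkenal reductase, with a log2 difference of 1.79 (SE 0.28, adjusted p = 0.00642), and Akr1c19, an aldo-keto reductase, with one of 1.34 (SE 0.28, adjusted p = 0.0268). The list's median was 0.06 and that of all genes −0.01. None of the 26 passed in Nrf2-null mice, in Keap1-KD mice or between Keap1-HKO and Keap1-KD mice. At an unadjusted limma p under 0.05, 1 was higher and 3 lower in Nrf2-null mice and 2 were higher in Keap1-KD mice. Between Keap1-HKO and Keap1-KD mice 3 were higher and 3 lower. Of all 5856 genes, 405, 149 and 752 were under 0.05 in these comparisons, and 1092 between Keap1-HKO and wild-type mice. The Akr1c19 call ended when any of 5 arrays was left out (wild-type replicates 2 and 3, Keap1-KD replicate 3, Keap1-HKO replicates 1 and 3, adjusted p up to 0.0863). Leaving out both arrays that stood apart gave 3 higher and 1 lower in Keap1-HKO mice.

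The nearest relatives did not pass in any comparison. Cbr4, a mitochondrial carbonyl reductase, differed from wild-type by −0.01 in Nrf2-null, 0.24 in Keap1-KD mice and 0.28 in Keap1-HKO mice on the log2 scale. The differences of Nqo2, a quinone reductase that uses dihydronicotinamide riboside, were 0.03, −0.15 and 0.05. Those of Ephx2, the soluble epoxide hydrolase, were 0.47, 0.17 and −0.04. Of 6 other epoxide hydrolases and related enzymes 3 were measured and none passed. In limma at an unadjusted p under 0.05 there was 1, Ephx2 in Nrf2-null mice, where its arrays lay wholly above wild-type, the opposite direction to Ephx1. Of all 5856 genes, 405 were under 0.05 in that comparison.

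**Figure D3:**
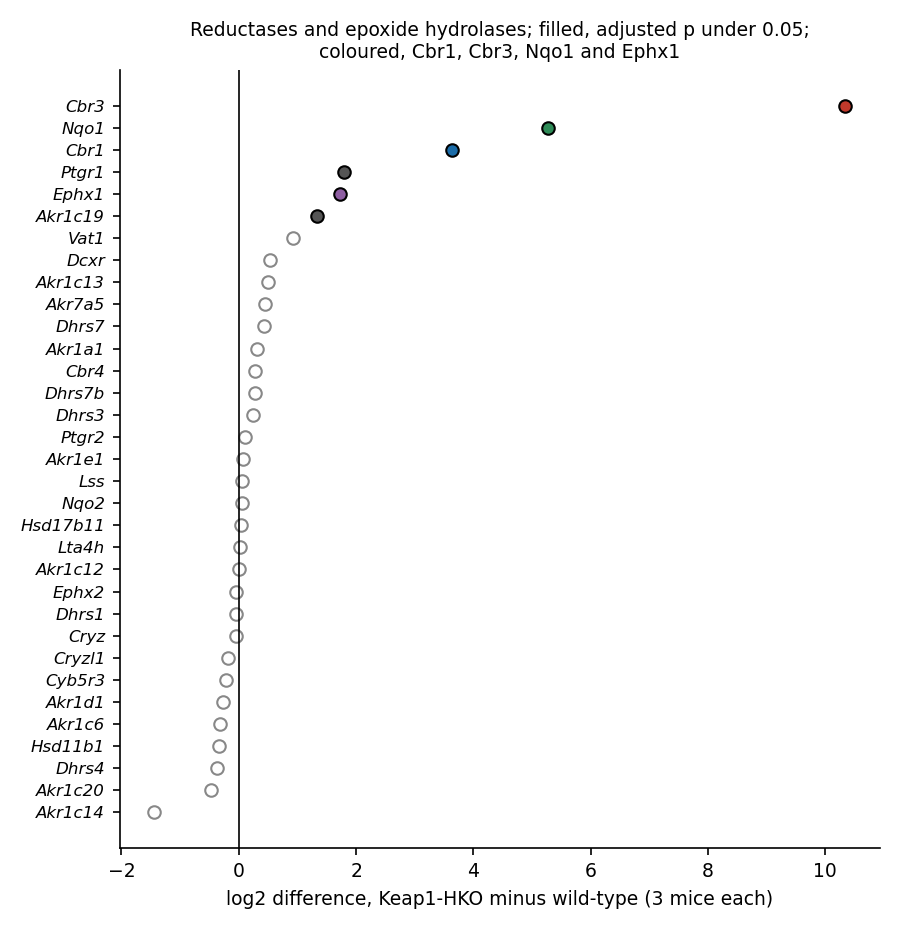
Log2 difference between Keap1-HKO and wild-type mice (x axis) of each measured carbonyl or quinone reductase and epoxide hydrolase (y axis), with genes that passed the test filled and Cbr1, Cbr3, Nqo1 and Ephx1 in colour. Cbr3, Nqo1 and Cbr1 stand apart at 10.34, 5.28 and 3.64, while most other enzymes lie near 0. With values raised to 100, Cbr3 and Nqo1 are at 7.20 and 3.35.

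Of 30 other genes widely cited as Nrf2 targets, 23 were measured. In Nrf2-null mice 6 passed as lower, among them Aox1, an aldehyde oxidase (−2.77), Abcc3, an efflux transporter (−2.90), and the glutathione S-transferases Gstm3 (−3.63) and Gstm1 (−2.18). In Keap1-KD mice 1 passed as higher, the efflux transporter Abcc4 (1.45). Its wild-type arrays lay under 100, and that call was lost with values raised to 100 (0.11, adjusted p = 1) and after a second quantile normalization (adjusted p = 0.507). In Keap1-HKO mice 17 passed as higher, with the lowest adjusted p for Abcc4 (6.78), the sulfiredoxin Srxn1 (3.05), the thioredoxin reductase Txnrd1 (1.74) and Gstm4 (3.25). Between Keap1-HKO and Keap1-KD mice 9 passed as higher, with the lowest for Abcc4 (5.33), Srxn1 (2.35), Txnrd1 (1.35) and the biliverdin reductase Blvrb (1.85). Over all genes 0.359%, 0.0512%, 2.1% and 0.786% passed in the same directions. The list's medians in these comparisons were −0.68, 0.66, 1.60 and 0.93 on the log2 scale, and those of all genes between −0.01 and 0.02. The targets were listed with results of these mice known, so that their direction is not independent evidence. The Gstm1 call in Nrf2-null mice ended without Nrf2-null replicate 2 or 3 or wild-type replicate 1 or 3 (adjusted p up to 0.0786). That of Abcc4 in Keap1-KD mice ended without replicate 1 or 2 of either genotype (up to 0.0918), and that of Blvrb without Keap1-KD replicate 2 or 3 (up to 0.071).

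Genes whose log2 values followed each member most closely over the 12 arrays were found by Pearson correlation. For Cbr1 they were Abcc4 (r = 0.99), Blvrb (0.987) and Cbr3 (0.983), and for Cbr3 they were Abcc4 (0.998), Srxn1 (0.984) and Cbr1 (0.983). Those genes had log2 differences between −0.68 and 0.03 in Nrf2-null mice. Abcc4 and Cbr3 had mean log2 values under 6.64 in both Nrf2-null and wild-type mice, so nothing is read from their differences there. For Nqo1 they were the sterol transporter Abcg5 (0.979), the cytochrome P450 Cyp2g1 (0.978) and Srxn1 (0.977). For Ephx1 they were Gstm1 (0.992), Entpd5 (0.988), a nucleotide diphosphatase, and Gstm3 (0.986), with log2 differences of −2.18, −1.02 and −3.63 in Nrf2-null mice. Between the members themselves r was lowest for Cbr3 and Ephx1 (0.81). Each r rests on the same 12 arrays in 4 groups, so that it follows mainly the genotype means.

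**Figure D4:**
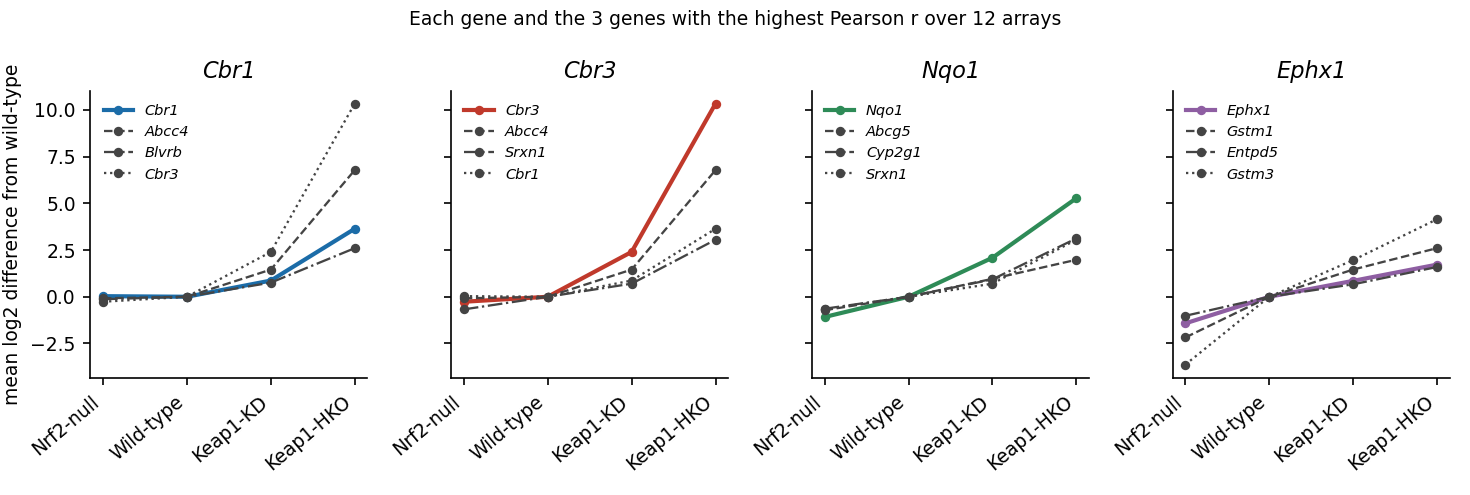
Mean log2 difference from wild-type (y axis) in the 4 genotypes (x axis) for each member, drawn in colour, and the 3 genes with the highest Pearson r over 12 arrays, in grey. Genes that followed Cbr1 and Cbr3 were between −0.27 and 0.03 in Nrf2-null mice apart from Srxn1 (−0.68), while those that followed Ephx1 lay 1.02 to 3.63 below wild-type in Nrf2-null mice.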

How the data were processed

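Livers of 12 mice (4 genotypes, 3 mice each) were measured on Affymetrix mouse expression arrays. The authors made the deposited log2 values with gcRMA in R, which corrects background, normalizes by quantiles and summarizes probe sets, and left out probe sets that stayed under an intensity of 100 in all groups. The version and the annotation build were not given in the sources used here. Symbols came from the platform annotation held by GEO. Probe sets with 1 symbol (8554 of 9622) were used, and those with several (371) or none (697) were left out. For a gene with several, the one with the highest mean was taken.

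All 5856 genes were fitted with limma 3.58.1 in R 4.3.3 over the 12 arrays, with Benjamini and Hochberg's adjustment over all genes and a threshold of 0.05. The fit was tested on simulated data. Percent changes use mean un-logged intensities, with the SEM of the named genotype. Folds are given as bounds against 100 where a group mean was under it. Members' responses were compared by exact permutation with scipy 1.17.1. The number of arrays limits the precision.

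Genes were named by rule: the 4 members, Nfe2l2, Keap1, Cbr4, Nqo2, Ephx2, up to 4 called genes with the lowest adjusted p per list, comparison and direction, and the 3 genes with the highest Pearson r to each member. Members and lists were chosen with earlier results of these data known. Alternatives were other choices of probe set, filter, floor, normalization, variance model, array weights, samples and replicate block, the methods' Duncan's multiple range test, and leaving out arrays. Gene-by-gene array weights, members' responses with values raised to 100 and the neighbouring genes were chosen after seeing the data. Promoter windows were those of RefSeq (GRCm38.p6), in which all 4 members had an entry.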

Additional observations from a re-analysis of the deposited data

How the results depend on the processing

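The rises of Cbr1 in Keap1-HKO mice over wild-type and Keap1-KD mice passed under every alternative. Those of Cbr3 and Nqo1 and the larger second step of Cbr3 did too, but their being listed in part required this. The log2 rise against wild-type was 3.31 to 3.87 for Cbr1, 7.20 to 10.49 for Cbr3 and 3.35 to 5.71 for Nqo1. That of Ephx1 lost its call when only the genotypes compared were fitted (1.72, adjusted p = 0.0862). Causes were not tested except where named.

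The Ephx1 difference in Nrf2-null mice, −1.42 with adjusted p = 0.0508, passed with the mean over probe sets, a filter at 200, a floor at 100, trended robust variances and Duncan's test on log2 values (−1.42 in each), after a second quantile normalization (−1.40), with either kind of array weights (−1.61) and without both arrays that stood apart (−1.56). Nqo1 and Cbr3, under 100 in both genotypes, passed in Nrf2-null mice with array quality weights (−0.95 and −0.58). That fit did not converge and called 1379 of 5856 genes there (695 lower), and 323 in Keap1-KD mice (158 higher). Nqo1 passed with gene-by-gene weights (−0.94) and Duncan's test (−1.08). In Keap1-KD mice Cbr1 and Ephx1 passed with quality weights (0.68 and 0.78) and Duncan's test on log2 values (0.87 and 0.85), and Ephx1 also on un-logged values (4423 units of intensity). Cbr3 and Nqo1 in Keap1-KD mice lost their calls at a floor of 100 (0.00 and 0.22), where fewer values differ by construction, after a second quantile normalization (2.0 and 2.45) and in Duncan's test on un-logged values (49.21 and 88.58 units). Nqo1 lost its call also with every probe set tested and with trended robust variances (2.09 in both). Ephx1 passed between Keap1-HKO and Keap1-KD mice with gene-by-gene weights (0.78). The difference between steps passed for Cbr1 with quality weights (1.96) and gene-by-gene weights (2.10), and for Nqo1 at a floor of 100 (2.92).

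Signs turned for Cbr1 in Nrf2-null mice with quality weights (−0.10), gene-by-gene weights (−0.14), without both arrays that stood apart (−0.08) and on un-logged values (−9.484 units), for Cbr3 in Nrf2-null mice after a second quantile normalization (0.42), and for the step difference of Ephx1 without both arrays (−0.13). With values raised to 100, added after seeing the data, the differences of changes in Keap1-KD mice turned for Cbr3 against Nqo1 (−0.22), Cbr1 (−0.87) and Ephx1 (−0.85) and for Nqo1 against Cbr1 (−0.65) and Ephx1 (−0.64), as did Nqo1 against Cbr1 in Keap1-HKO mice (−0.29). Leaving out single arrays gave −0.25 to 0.26 for Cbr1 and −1.68 to −1.15 for Ephx1 in Nrf2-null mice, 2.22 to 2.51 for Cbr3 and 1.84 to 2.24 for Nqo1 in Keap1-KD mice, and −0.26 to 0.27 for the step difference of Ephx1.

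No label ties a replicate number to a litter or day. Deviations of same-numbered arrays correlated above 0.1 in 15 of 18 cases. The best match in another genotype had the same number in 28 of 36 choices, a hint of pairing from the data, not the design. In each comparison with wild-type 1 of 3 pairs was under 0.1 (lowest −0.157). Nrf2-null and Keap1-HKO mice had the highest r (0.685 to 0.787). All 3 between Keap1-KD and Keap1-HKO mice were 0.105 to 0.215. There a replicate block changed no member's call (adjusted p = 0.0767 for Ephx1), and genes called went from 84 to 125. With it Ephx1 passed in Nrf2-null mice (−1.42, adjusted p = 0.0197) and Nqo1 did not in Keap1-KD mice (2.09, adjusted p = 0.0844). Genes called went from 24 to 44 in Nrf2-null and 231 to 381 in Keap1-HKO mice.

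Numbers of genes called varied more. From 24, 4, 231, 84 and 10 in the 5 comparisons they ranged from 12 to 1379 in Nrf2-null, 0 to 323 in Keap1-KD and 49 to 1080 in Keap1-HKO mice, 21 to 528 between Keap1-HKO and Keap1-KD mice, and 5 to 83 for the step difference. Without both arrays that stood apart 671 genes passed in Keap1-HKO mice, 1 reductase among them as lower. In Keap1-KD mice 2 Nrf2 targets passed as higher. Fitting only the genotypes compared ended the calls of Ptgr1, Akr1c19, Abcc3, Gstm1, Blvrb and, in Keap1-HKO mice, Nfe2l2 (adjusted p between 0.0531 and 0.24). Duncan's test on log2 values, which is not adjusted over genes, called 150 higher and 166 lower in Nrf2-null, 81 and 51 in Keap1-KD, and 334 and 369 in Keap1-HKO mice. Nqo1 was above 100 on 4 arrays and 200 on 3.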

Other observations

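The protein-coding genes next to the members were looked up in RefSeq, 3 on each side, a choice made after the values were seen. Besides Cbr1 and Cbr3, which adjoin each other, 4 neighbours were measured. Cyb5b and Psmd7 near Nqo1 and Cnih4 near Ephx1 passed in no comparison with wild-type mice, with log2 differences between −0.71 and 0.37. The gene that directly adjoins Ephx1 on chromosome 1, 9130409I23Rik, passed in Nrf2-null mice. Its log2 intensity was 2.79, 2.62 and 2.58 in Nrf2-null, 9.37, 8.45 and 8.79 in wild-type, 9.85, 10.35 and 9.54 in Keap1-KD, and 8.60, 10.76 and 10.58 in Keap1-HKO mice. All Nrf2-null arrays lay far below every other array. The mean un-logged intensity of 485 in wild-type mice was at least 4.85-fold higher than in Nrf2-null mice when these are set to 100, and the log2 difference in Nrf2-null mice was −6.21 (limma adjusted p = 0.000335). With values raised to 100 the adjusted p was 0.114. The differences of 1.04 with Keap1 knockdown and of 1.11 in Keap1-HKO mice did not pass (adjusted p = 1 and 0.267), and Keap1-HKO replicate 1, which stood apart, was the lowest of its group for this gene but the highest for the 4 members.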
